A study of Mus musculus with 6 samples.

Results

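The cells described here are absorptive enterocytes of mouse intestinal monolayers that received only the solvent DMSO, compared by how much of their RNA came from ribosomal protein genes. The cells were chosen by a measured value: for every cell named an enterocyte by the authors in the 2 DMSO libraries, the percent of unique molecular identifiers (UMIs, each a counted RNA molecule) from cytosolic ribosomal protein genes was computed. Cells at 10% or more are called ribosome-rich and cells under 6% ribosome-poor. Of the deposited cells 5026 had at most 25% mitochondrial UMIs, and 2083 of these were DMSO enterocytes, 1046 from DMSO replicate 1 and 1037 from DMSO replicate 2. The rich cells numbered 572 (289 and 283), the poor cells 713 (372 and 341), and 798 cells (385 and 413) lay between them.

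The study grew monolayers from intestinal organoids on Matrigel-coated inserts, let them differentiate in medium with a lowered amount of L-WRN growth-factor medium, and asked how the response to endoplasmic reticulum (ER) stress unfolds over time. It has 3 groups of 2 libraries, called biological replicates: DMSO alone from day 3 of differentiation, 12 h of DMSO followed by 13 h of tunicamycin at 0.5 µg/ml, and 25 h of tunicamycin at that dose, with all groups harvested on day 4. Tunicamycin, an inhibitor of N-linked glycosylation, was absent from the DMSO group. The labels give every group the same strain, a Rosa26-floxed STOP-Cas9 line crossed to cmv-cre on B6, so the controls share the Cas9 and Cre alleles. Dead cells were removed with a kit before droplet capture. The tissue label is small intestine but colonic spheroids appear in the culture protocol. Whether the replicates came from separate animals is not given, so p-values refer to these libraries only.

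Ribosomes are built from ribosomal RNA and many small proteins, and the messages of those proteins are translated and stabilised together through a pyrimidine run at their start, the 5′ terminal oligopyrimidine (TOP) motif. Growth signals acting through the kinase mTORC1 set how strongly TOP messages are used. In the intestinal epithelium, cells that leave the crypt carry many ribosomes and lose ribosomal messages as they mature towards the villus tip or colon surface, where genes of lipid handling and immune defence are high.

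The ribosomal share varied continuously across both boundaries, with empty bins only above 22%, where few cells lay. Its median was 7.31% in DMSO replicate 1, with a range from 0.578% to 30.9%, and 7.54% in DMSO replicate 2, with a range from 0.766% to 24.5%. The groups are therefore ranges of a continuous measure and not cell types: within 0.5 percentage points of the 10% boundary lay 60 and 79 cells, and within 0.5 points of the 6% boundary 119 and 109 cells. The nearest cells to the boundaries were at 9.98% and 10.0% in replicate 1 and 9.99% and 10.0% in replicate 2, and at 5.99% and 6.01% in replicate 1 and 5.97% and 6.01% in replicate 2. Rich cells made up 27.6% of the enterocytes in replicate 1 (95% exact Clopper-Pearson interval 24.9% to 30.4%) and 27.3% in replicate 2 (24.6% to 30.1%). Poor cells made up 35.6% (32.7% to 38.6%) and 32.9% (30.0% to 35.8%). These intervals cover counting error only.

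**Figure D1:**
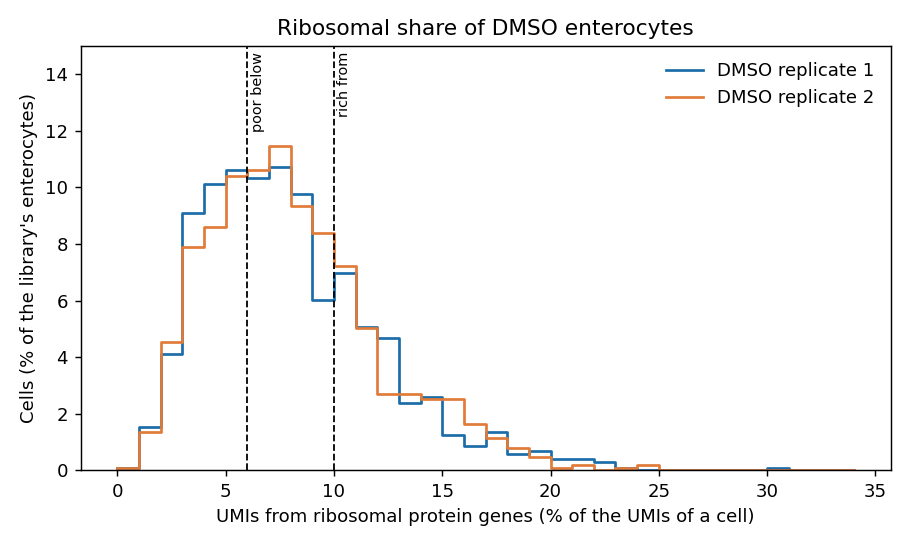
Distribution of the ribosomal share over DMSO enterocytes, in bins of 1 percentage point on the horizontal axis, with the percent of each library's enterocytes on the vertical axis. Lines are the 2 libraries and dashed lines the boundaries at 6% and 10%; both libraries are highest between the boundaries, with medians of 7.31% and 7.54%.

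Depth and RNA composition moved with the ribosomal share. Median UMIs per cell were 17284 and 16104 in rich cells and 14754.5 and 14181 in poor cells, and with ribosomal UMIs set aside the medians were closer, 14889 and 14086 against 14147.5 and 13585. The median mitochondrial share was 7.29% and 7.28% in rich cells against 11.3% and 10.8% in poor cells, and the median share of the nuclear RNA Malat1 was 2.39% and 2.10% against 3.52% and 3.13%. Across cells, the ribosomal share had a Spearman rho of -0.31 and -0.32 with the mitochondrial share of non-ribosomal UMIs and of -0.20 and -0.19 with the Malat1 share (1046 and 1037 cells, which share their library and depth). The part of depth, RNA quality and nuclear RNA in the gene differences was not tested. The results were recomputed in cells of 7% to 11% mitochondrial UMIs, in cells of 2% to 4% Malat1 and in cells thinned to 5000 UMIs, and several list counts that moved are given beside the lists. Summed UMIs were 5334271 and 4889739 over rich cells and 5679022 and 5174088 over poor cells. No barcode was shared between the DMSO libraries.

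Ribosomal protein genes chose the cells, so their values describe the states and carry no test. Of 85 such genes, 82 had a mean of at least 100 CPM (counts divided by the total of all UMIs and scaled to a fixed total), and all 82 were higher in rich than in poor cells in both libraries. Their ratio of rich to poor ran from 1.12 to 7.25 with a median of 3.24. Rps6, a small-subunit protein phosphorylated by the S6 kinases downstream of mTORC1, was at 1094 and 1127 CPM in rich cells, 539 and 586 CPM in middle cells and 299 and 309 CPM in poor cells. Its values did not overlap between the states, and its ratio of 3.65 was somewhat above the family median.

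The most abundant members were Rpl41, Rplp0 (a stalk protein of the large subunit) and Rps14. Rpl41 was at 5134 and 4327 CPM in rich and 2171 and 2019 CPM in poor cells, a ratio of 2.26. Rplp0 was at 4668 and 5096 CPM against 1240.3 and 1361 CPM, a ratio of 3.75. Rps14 was at 4228 and 4412 CPM against 1572 and 1629 CPM, a ratio of 2.70. The family thus did not scale by a common factor: the abundant Rpl41 had a smaller ratio than the family median.

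The ends of the ratio scale were far apart. Rpl12, a large-subunit protein at the base of the stalk, was at 467 and 477 CPM in rich cells and 63.0 and 67.3 CPM in poor cells, a ratio of 7.25. Rpl3, at the peptidyl transferase centre, had a ratio of 6.52. At the other end, Rps27l, a p53-responsive paralog of Rps27, was at 687 and 736 CPM against 614 and 653 CPM, a ratio of 1.12. Its paralog Rps27 was at 3266 and 2799 CPM against 1367 and 1209 CPM, a ratio of 2.35. The next lowest ratios were 2.02 for the retrogene Rps27rt, whose reads can be shared with Rps27, and 2.22 for Rps26. The name pattern also took 12 genes that are not ribosomal proteins, such as the S6 kinase genes, none above 88.6 CPM on average.

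**Figure D2:**
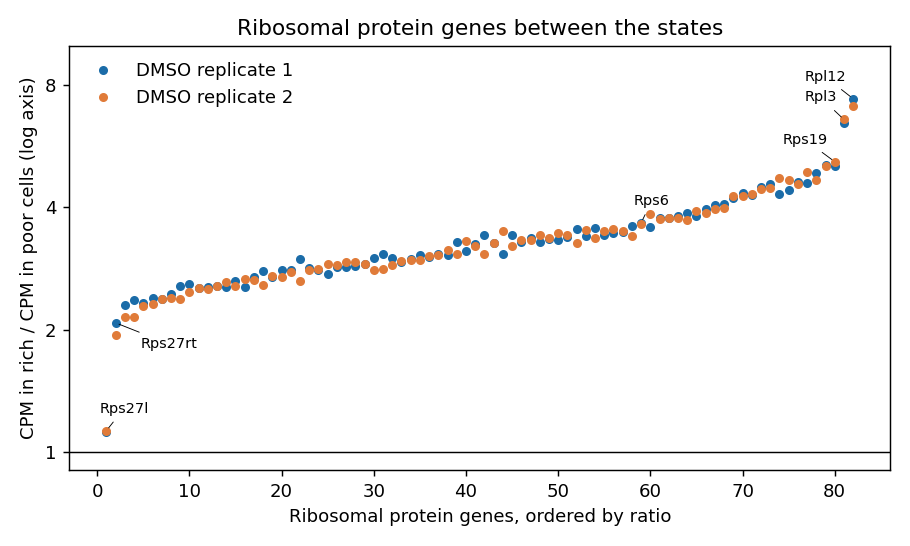
Ratio of CPM in ribosome-rich to CPM in ribosome-poor enterocytes (vertical axis, log scale) for the 82 ribosomal protein genes with a mean of at least 100 CPM, ordered by ratio on the horizontal axis. Points are the 2 DMSO libraries; every point lies above 1, Rps27l is lowest at 1.12 and Rpl12 highest at 7.25 (means over libraries).

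Start-site sequences of 6 genes are shown, with and without a run, because a pyrimidine run at the start is what defines a TOP message. Each is 10 bases before to 20 bases from the RefSeq start (build GRCm38.p6), 5′ to 3′ on the gene's strand, with capitals marking the unbroken run of C and T that holds the start base.
Rps6, chr4:86857348-86857377, minus strand: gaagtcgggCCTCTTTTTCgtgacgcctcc
Rack1, chr11:48800350-48800379, plus strand: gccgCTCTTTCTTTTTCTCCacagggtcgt
Rps27, chr3:90213629-90213658, minus strand: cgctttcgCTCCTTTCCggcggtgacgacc
Rps27l, chr9:66946076-66946105, plus strand: cctccccgccgcctctatcccggaagttgc
Rpl12, chr2:32961702-32961731, plus strand: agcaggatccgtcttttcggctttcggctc
Eef1b2, chr1:63176821-63176850, plus strand: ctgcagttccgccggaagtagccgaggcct
Rps6, Rack1 and Rps27 have runs of 10, 16 and 9 bases, while no listed start of Rps27l, Rpl12 or Eef1b2 lies in a run of C and T. Rpl12 had the highest ratio of the family and Rps27l the lowest, and in both stretches a run of C and T begins at the base after the start. These few sequences do not show how a run relates to the ratio. A run of at least 5 bases held the start in 21 of 64 ribosomal protein genes with a window (32.8%), in 8 of 17 other TOP genes (47.1%) and in 11.4% of the 7692 tested genes with a window. Among those it was 13.0% of the genes higher in rich cells and 10.8% of the genes lower in them. The annotated start need not be the one used in these cells, and a run is a description, not a measured TOP message.

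With the ribosomal genes taken out of counts and totals, 9739 genes were tested between rich and poor sums, with the library as a block. edgeR called 1770 genes higher in rich cells (18.2%) and 1782 lower (18.3%), 36.5% in all, of which 243 and 320 differed at least 2-fold. The median log2 fold change (rich over poor) of all tested genes was -0.00261. A fit over all 6 libraries called 1599 higher and 1432 lower of 10416 genes for the same DMSO comparison. All counts without a DMSO replicate come from that fit and stand beside these. In the fit over all 6 libraries, where a library left alone is assumed to vary like the other groups, 887 and 734 genes were called without DMSO replicate 1 and 786 and 692 without DMSO replicate 2. The block fit leaves 1 residual degree of freedom, and the common dispersion came to a biological coefficient of variation of 0.0289. The prior degrees of freedom of edgeR were infinite (median over genes), so the spread used for a gene was not its own. In this fit the SE and p-value of a gene therefore do not show how well the libraries agreed for that gene. DESeq2 called 507 higher (5.64%) and 486 lower (5.41%), all of them among the edgeR calls, 11.1% in all, and its count is given beside those of most lists. Both rich sums lay beyond both poor sums for 64.9% of the tested genes, so a lack of overlap alone is common. Levels below are CPM of non-ribosomal UMIs after TMM scaling, fold changes are log2 of rich over poor with their standard error (SE), and a gene is said to be higher or lower only where its edgeR adjusted p was under 0.05. On levels without TMM, middle cells lay between rich and poor cells in both libraries for 1384 of the higher genes (78.2%) and 1084 of the lower genes (60.8%). The share among genes without a call was not computed. List counts in restricted cells stand beside fewer calls over all genes. Cells of 7% to 11% mitochondrial UMIs gave 697 higher and 879 lower of 8329 tested genes, and those of 2% to 4% Malat1 gave 849 and 859 of 8153. Thinned cells gave 967 and 933 of 7771, and cells with at most 10% mitochondrial UMIs 946 and 1103 of 8944.

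Other TOP messages were higher in rich cells almost without exception: 20 of 21 tested passed in that direction and none in the other, with a median log2 fold change of 1.28 (DESeq2 called 18). Eef1a1, the elongation factor that brings aminoacyl-tRNA to the ribosome, was at 3915 and 4015 CPM in rich and 1150.0 and 1168 CPM in poor cells, a log2 fold change of 1.77 ± 0.04 SE. Its levels did not overlap, and its UMIs were spread widely, with the top 10% of poor cells holding 23.9% and 24.4% of them. Rack1, a scaffold bound to the small subunit, was at 708 and 706 CPM against 156 and 155 CPM (log2 fold change 2.19 ± 0.05 SE). Eef1b2, the exchange factor of Eef1a1, was at 727 and 735 CPM against 208 and 224 CPM (1.76 ± 0.05 SE). Both were apart in both libraries. The nucleolar chaperone Npm1 and the RNA-binding protein Hnrnpa1 were higher by 1.66 and 1.71, and the exception was Nap1l1 at 0.09 ± 0.26 SE. Fau of this list encodes a fusion that is cut to a ribosomal protein but has another name, and it was higher by 1.07.

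Ribosomal pseudogenes were higher too: of 36 tested pseudogenes of any kind, 26 were higher in rich cells and none lower. Of the 10 genes with the highest fold change among those the naming rule considers, 5 were annotated pseudogenes, with Rps12-ps3 at 2.50 ± 0.08 SE and Rpl13-ps3 at 2.49 ± 0.13 SE. The sequences of ribosomal pseudogenes are near copies of ribosomal genes, so reads may come from the parents and these calls are uncertain and not independent of the rule. Without pseudogenes the calls were 1744 higher and 1782 lower.

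Genes that assemble ribosomes were partly higher. Of 15 tested ribosome biogenesis genes, 7 were higher and none lower, with a median of 0.64 (DESeq2 called 3, and cells of 2% to 4% Malat1 gave 4), and 10 more of the list were too low to test. Ncl, the nucleolar protein nucleolin, was at 67.7 and 59.3 CPM in rich and 32.1 and 40.2 CPM in poor cells (log2 fold change 0.82 ± 0.10 SE), and Polr1c, a subunit of RNA polymerases I and III, was higher by 0.68 ± 0.09 SE. Nhp2, of the particles that pseudouridylate ribosomal RNA, was scarcer, at 17.1 and 14.5 CPM against 5.26 and 4.11 CPM. All 3 were apart between the states in both libraries.

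The translation machinery of mitochondria followed with smaller differences: 24 of 28 mitochondrial ribosomal proteins were higher and none lower, with a median of 0.44. DESeq2 called 7 of them, the cells of 7% to 11% mitochondrial UMIs gave 10, those of 2% to 4% Malat1 gave 12, and leaving out DMSO replicate 1 or 2 gave 13 or 15. In the cells of 7% to 11% mitochondrial UMIs and in those of 2% to 4% Malat1 the list median was 0.35 and 0.42. Mrpl52 was at 119 and 107 CPM in rich and 63.1 and 55.8 CPM in poor cells, Mrpl30 at 199.6 and 203 CPM against 103 and 115 CPM, without overlap. Aminoacyl-tRNA synthetases of the cytosol, which charge tRNAs, were higher for 13 of 20 and lower for 1 (Wars, -0.40 ± 0.15 SE), with a median of 0.68; DESeq2 called 6 higher and none lower. Sars, for serine, was at 105 and 124 CPM against 46.8 and 63.8 CPM, and Nars, for asparagine, at 128 and 129.9 CPM against 70.2 and 80.1 CPM. Iars and Mars, for isoleucine and methionine, had the largest differences of this list, 1.52 ± 0.28 and 1.20 ± 0.18 SE, and DESeq2 did not call Iars (adjusted p 0.0704).

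Enzymes of amino acid supply were among the most different genes. The ATF4 and CHOP network, a set of genes induced when the kinases of the integrated stress response phosphorylate eIF2alpha, had 13 of 17 members higher and 1 lower, with a median of 0.90 (DESeq2 called 10 higher). In cells of 7% to 11% mitochondrial UMIs 7 of 16 were higher and 1 lower, with a median of 0.55. Mthfd2, a mitochondrial enzyme of one-carbon metabolism and the gene with the highest fold change among called genes of at least 20 CPM, was at 46.1 and 48.7 CPM in rich and 4.51 and 6.57 CPM in poor cells, a log2 fold change of 3.10 ± 0.16 SE. Asns, which makes asparagine, was at 47.6 and 56.3 CPM against 6.95 and 10.9 CPM (2.55 ± 0.14 SE). These levels were low. The states did not overlap for either gene, which the rule that named them required. The UMIs came from a minority of cells: the top 10% of rich cells held 74.1% and 72.2% of those of Mthfd2.

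The first enzymes of serine synthesis were also higher in rich cells. Psat1 was at 9.39 and 12.0 CPM against 0.751 and 0.821 CPM (3.71 ± 0.40 SE), and Phgdh at 5.76 and 7.59 CPM against 0.188 and 0.616 CPM, a fold change that rests on few UMIs in poor cells. Both were named after their values were seen. Trib3, a pseudokinase of the same response, was at 23.1 and 28.7 CPM against no more than 5.95 CPM in poor cells of either library (2.82 ± 0.22 SE). Chac1, which degrades glutathione, was at 17.1 and 23.7 CPM against 1.69 and 5.34 CPM.

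The transcription factors of the network moved less. Atf4 was at 135 and 137 CPM in rich and 62.5 and 71.8 CPM in poor cells (1.02 ± 0.08 SE), without overlap. Ddit3, which encodes CHOP, was at 89.4 and 129 CPM against 58.8 and 80.5 CPM (0.64 ± 0.08 SE), and its ranges were close, since rich cells of replicate 1 and poor cells of replicate 2 differed little. The lower member was Ppp1r15a, the stress-induced regulatory subunit of the eIF2alpha phosphatase, at -0.52 ± 0.14 SE, which DESeq2 did not call (adjusted p 0.449).

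Promoter stretches are shown for 4 of these genes because they hold the C/EBP-ATF response element to which ATF4 binds as a dimer. Capitals mark the letters TGATGNAAN or their reverse complement, searched on both strands of RefSeq windows from 250 bases before to 50 bases after the start (GRCm38.p6), and each stretch is written 5′ to 3′ on the gene's strand.
Asns, chr6:7693216-7693240, minus strand: cagccacaTGATGAAACttcccgca
Chac1, chr2:119351040-119351064, plus strand: tccctgccGTTGCATCActcctgcc
Slc7a11, chr3:50443663-50443687, minus strand: catgtggcTGATGCAAAcctggaga
Tars, chr15:11399658-11399682, minus strand: ggagtcccGTTGCATCAgctggtta
Slc7a11 imports cystine and Tars charges threonine tRNA; both were higher in rich cells, by 0.90 and 0.78, though not by DESeq2 (adjusted p 0.284 and 0.075). The letters were found in 7 of 17 network windows and in 5 of 12 synthetase windows, against 2.65% of the 7692 tested genes with a window. They were in 43 of 1412 windows of genes higher in rich cells and 49 of 1391 of genes lower in them. Atf3 and Vldlr of the network also hold the letters but were not called (0.46 and 0.16). The lists were made from known targets, and a match is not evidence of binding in these cells.

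ER chaperones were higher for 7 of 15 members and lower for none, with a median of 0.17 (DESeq2 called 3). Hspa5, the ER chaperone BiP, was at 210.3 and 379.6 CPM in rich and 150.1 and 171 CPM in poor cells (0.84 ± 0.06 SE). The libraries differed: a single rich cell of replicate 2 held 505 Hspa5 UMIs, 30.6% of that sum, and without TMM scaling the rich level there was 389 CPM with the cell and 271 CPM without it. DESeq2 did not call Hspa5 (adjusted p 0.0939). P4hb, a disulfide isomerase, and Canx, the lectin chaperone calnexin, were higher by 0.41 ± 0.05 and 0.44 ± 0.06 SE. Xbp1, a transcription factor of the unfolded protein response, was at 87.7 and 91.3 CPM against 61.0 and 73.3 CPM, and DESeq2 did not call it (adjusted p 0.127).

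Cholesterol synthesis was higher in rich cells along the pathway: 19 of 20 members passed in that direction, with a median of 0.75, and 1 was lower. DESeq2 called 15 higher and 1 lower, and cells with at most 10% mitochondrial UMIs gave 11 higher with a median of 0.35. Fdps, which makes farnesyl diphosphate, was at 502 and 551 CPM in rich and 226 and 251 CPM in poor cells (1.14 ± 0.05 SE). Mvd, of the mevalonate branch, was at 123 and 132 CPM against 44.5 and 48.0 CPM (1.46 ± 0.08 SE), and Cyp51, a sterol demethylase, at 317 and 336 CPM against 161 and 182 CPM. None of the 3 overlapped between the states. The sterol regulatory element, searched as TCACNCCAC, was in 1 of 14 windows of the list, that of Hmgcs1, against 1.38% of tested genes.

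Nuclear and mitochondrial genes of respiration went in opposite directions. Of 38 nuclear-encoded subunits of the respiratory chain and ATP synthase, 34 were higher and 1 lower (Ndufa4), with a median of 0.32; DESeq2 called 32 higher, 18 were called without DMSO replicate 2, and cells of 7% to 11% mitochondrial UMIs gave 23. Ndufb5, of complex I, was at 489 and 505 CPM in rich and 277 and 266 CPM in poor cells, and Atp5c1, of ATP synthase, at 1003 and 1028 CPM against 594 and 640.1 CPM. Of the 13 genes of the mitochondrial genome none was higher and 9 were lower, with a median of -0.38 (DESeq2 called 8). The mitochondrial share differed between the states as a whole. In cells of 7% to 11% mitochondrial UMIs 4 of the 13 were higher and 1 lower with a median of 0.08. Cells with at most 10% gave 2 higher and 2 lower. Both sets are chosen by the summed UMIs of these same 13 genes, so they cannot show whether the genes differ between the states. The share that chose them is of all UMIs, while the fold changes leave ribosomal UMIs out.

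Glycolytic enzymes had small differences, 9 of 14 higher and 2 lower with a median of 0.17; DESeq2 called 6 higher and none lower, and leaving out either DMSO library gave 5 higher. Aldoa, Gapdh and Eno1 were higher by 0.35 ± 0.04, 0.40 ± 0.04 and 0.42 ± 0.04 SE. Slc2a1, the glucose carrier of the basolateral side, was lower (-0.56 ± 0.08 SE), which DESeq2 did not call (adjusted p 0.208). In cells of 7% to 11% mitochondrial UMIs the counts were 2 higher and 2 lower. Of 12 genes of fatty acid oxidation, 4 were higher and 1 lower with a median of 0.18, 1 was higher without either DMSO library, none in thinned cells and 2 in cells of 7% to 11% mitochondrial UMIs or of 2% to 4% Malat1, and DESeq2 called none higher and 1 lower. Of 6 metallothionein and zinc carrier genes 3 were higher (Mt1, Mt2 and the zinc carrier Slc39a5) and 2 lower (Slc30a10 and Slc39a4), as by DESeq2. The metallothionein Mt1 was at 2356 and 2564 CPM against 1143 and 939 CPM and Mt2 at 273 and 404 CPM against 139.6 and 96.1 CPM. A single poor cell of replicate 2 held 38.9% of the Mt2 UMIs there, and on the scale without TMM the level was 94.5 CPM with and 57.9 CPM without it.

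**Figure D3:**
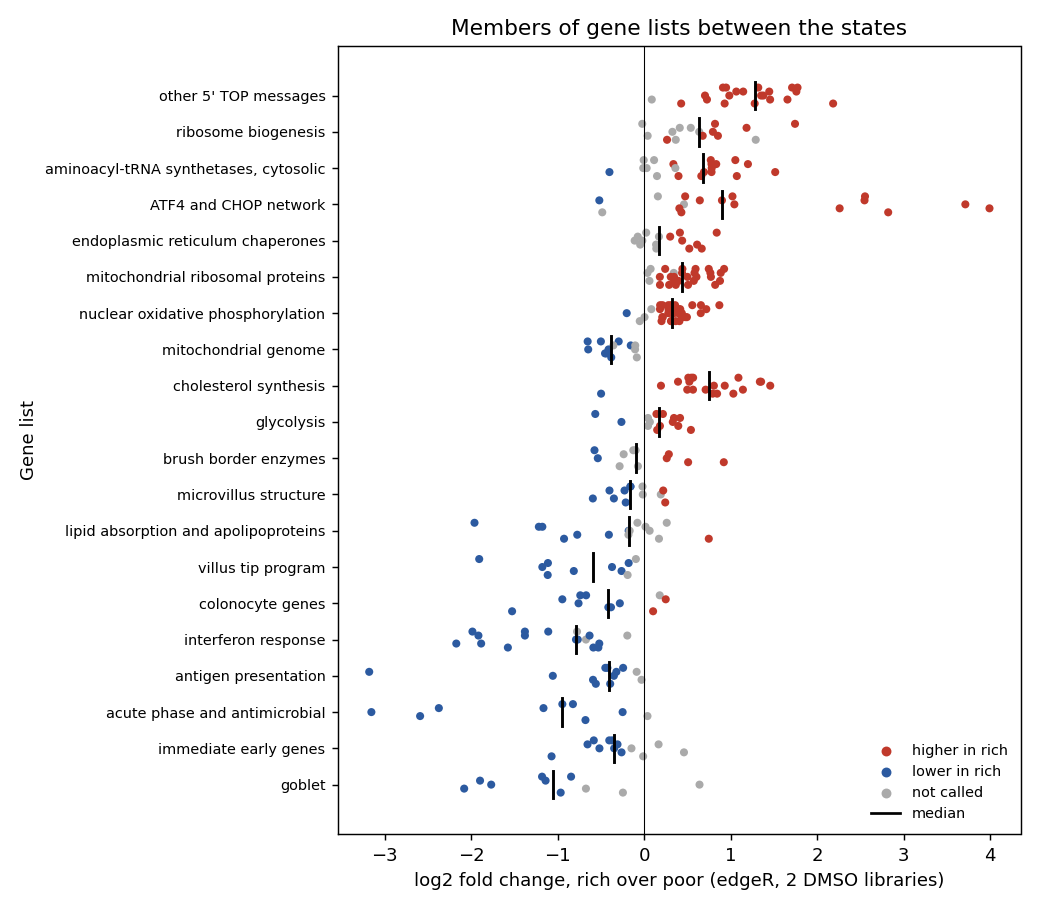
Log2 fold change of rich over poor DMSO enterocytes (horizontal axis) for the tested members of 20 gene lists (vertical axis), from the edgeR fit of 2 libraries. Red points were called higher in rich cells, blue points lower and grey points neither, and black bars are list medians, from 1.28 for other TOP messages to -1.05 for goblet genes.

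Genes of absorption were mixed in number and lower in rich cells where they differed most. Of 15 tested genes of lipid absorption, 7 were lower and 1 higher with a median of -0.18; DESeq2 called 4 lower and 1 higher, and 4 were lower without DMSO replicate 2. Fabp2, the intestinal fatty acid binding protein, was at 296 and 275 CPM in rich and 1207 and 1016 CPM in poor cells, 3.89-fold higher in the poor cells (-1.96 ± 0.05 SE). Apoa1, an apolipoprotein of chylomicrons and high-density lipoprotein, was at 384 and 333 CPM against 781 and 839 CPM (-1.18 ± 0.05 SE). Neither overlapped, but most UMIs of both genes sat in a minority of cells. For Fabp2 the top 10% of poor cells held 71.76% and 60.02%, and the top 10% of rich cells 69.53% and 66.86%. For Apoa1 the top 10% of poor cells held 87.9% and 88.0%.

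Apob, the structural protein of chylomicrons, was at 577 and 511 CPM against 1013 and 1052 CPM (-0.92 ± 0.04 SE). Apoa4, induced by fat absorption, overlapped: it was at 136 and 164 CPM in rich and 141 and 200.4 CPM in poor cells, and its call (-0.18 ± 0.06 SE, edgeR adjusted p 0.016) was not made by DESeq2 (adjusted p 0.618) or without TMM. The higher member was Mogat2, which rebuilds triglyceride, at 0.75 ± 0.09 SE. Lists of the brush border changed little: of 11 enzymes 4 were higher and 2 lower with a median of -0.10 (DESeq2 2 and 2), and of 12 microvillus genes 2 were higher (Espn and Myo1a) and 7 lower with a median of -0.16 (DESeq2 called 4 lower). Without DMSO replicate 1 or 2 the lower microvillus genes were 3 or 2, and the higher enzymes were 2 without replicate 2 and 1 in cells of 2% to 4% Malat1. Alpi, intestinal alkaline phosphatase, was at 237 and 210.1 CPM against 339.6 and 326 CPM (-0.57 ± 0.05 SE), without overlap. Sis, sucrase-isomaltase, and Naaladl1, a dipeptidase, were higher, by 0.51 ± 0.05 and 0.92 ± 0.07 SE.

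Genes of the most mature cells were lower in rich cells. Of 10 tested genes of a villus tip program 8 were lower and none higher with a median of -0.59, and DESeq2 called 3 of them; leaving out either DMSO library gave 4. Ada, adenosine deaminase, was at 7.90 and 7.82 CPM against 29.9 and 29.2 CPM (-1.91 ± 0.17 SE). A single poor cell held 30.8% and 27.5% of its UMIs in the libraries. Of 11 colonocyte genes 8 were lower and 2 higher (Ceacam20 and Selenbp1) with a median of -0.41; DESeq2 called 7 lower, and 5 were lower without DMSO replicate 2. Guca2a, which encodes guanylin, was at 1334 and 1282 CPM in rich and 3884 and 3647 CPM in poor cells (-1.53 ± 0.04 SE). Car1, the carbonic anhydrase abundant in colon, was at 2458 and 2237 CPM against 3952 and 3868 CPM (-0.74 ± 0.04 SE). Both were apart in both libraries. The enterocyte markers Fabp2, Alpi, Apoa4 and Car1 were thus present in both states. Car1 was abundant in cells labelled small intestine, while Fabp1, Lct, Car4, Slc26a3 and Aqp8 did not pass the filter on low counts, so these levels do not settle the origin of the tissue.

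Transcription factors of enterocytes were balanced, with 4 of 16 higher (Cdx1, Hnf4g, Vdr and Nr1h4), 4 lower and a median of -0.02. DESeq2 called 3 lower, and without DMSO replicate 1 or 2 there was 1 higher and 2 or 1 lower. Thinned cells and cells of 2% to 4% Malat1 also gave 1 higher. Prdm1, a transcriptional repressor, was lower in rich cells at 3.20 and 4.83 CPM against 14.8 and 15.4 CPM (-1.92 ± 0.25 SE). Elf3 and Tcf7l2 were lower, at -0.26 ± 0.05 and -0.39 ± 0.05 SE. Markers of crypt cells were scarce in both states: of 15 stem cell genes 7 could be tested, 2 were lower (Prom1 and Axin2; DESeq2 called 1) and none higher, and Lgr5, Ascl2 and Olfm4 were too low to test. Of 6 tested S phase genes 1, Pcna, was higher (0.37 ± 0.11 SE; DESeq2 adjusted p 0.5), and of 20 genes of G2 and M phase only Hmgb2, called higher, and Smc4 passed the filter. Summed over each list as CPM of all UMIs, S phase genes were at 105 and 112 CPM in rich and 105 and 111 CPM in poor cells. Genes of G2 and M phase were at 76.1 and 73.0 CPM in rich against 55.8 and 48.9 CPM in poor cells. Stem cell markers were at 258 and 253 CPM against 356 and 354 CPM. The last 2 sums were apart between the states, in opposite directions. Myc was too low to test. Among its partners and other growth regulators, 3 of 13 were higher (Nme1, Cdk4 and Cdkn1a) and 3 lower (Max, Mxd1 and Ccnd1), and DESeq2 called none higher and 3 lower. Without DMSO replicate 1 or 2, 2 or 1 were higher. Mxd1, an antagonist of Myc that marks differentiated cells, was lower at 222 and 208 CPM against 401 and 429.7 CPM.

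Interferon-stimulated genes were lower in rich cells: 14 of 17 passed in that direction and none in the other, with a median of -0.79, and DESeq2 called 11. Isg15, a ubiquitin-like modifier, was at 24.3 and 33.3 CPM in rich and 118 and 141 CPM in poor cells (-2.17 ± 0.09 SE). Ifit1, which binds foreign RNA, was at 121 and 114 CPM against 249 and 257 CPM (-1.11 ± 0.06 SE), and Oasl1 at 44.4 and 38.2 CPM against 104 and 111 CPM (-1.38 ± 0.09 SE). No level of these 3 overlapped between the states.

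Stretches of 3 promoters are shown because they hold the interferon-stimulated response element bound by STAT and IRF factors. Capitals mark GAAA, any 2 bases and a further GAAA, or the reverse complement, searched as above.
Isg15, chr4:156200867-156200892, minus strand: aggaaaccGAAACAGAAAatagctct
Ifit1, chr19:34640777-34640802, plus strand: ggcttcagTTTCACTTTCcagtctca
Ifit3, chr19:34583365-34583390, plus strand: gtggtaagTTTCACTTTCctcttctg
The letters were in 7 of 12 windows of the list, against 3.58% of the 7692 tested genes with a window. They were in 47 of 1412 windows of genes higher in rich cells and 79 of 1391 of genes lower in them. Bst2 of the list also holds the letters but was not called (-0.19). Matches of the promoter of Isg15 overlap each other, since it holds 3 within its window.

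Antigen presentation and defence genes were lower in the same cells. Of 12 antigen presentation genes 10 were lower and none higher with a median of -0.41 (DESeq2 called 6, and 5 were lower without DMSO replicate 2). The class I genes H2-K1 and B2m were at 1228 and 1204 CPM against 1799 and 1780.2 CPM and at 1464 and 1443 CPM against 1927 and 2041 CPM. H2 genes are close copies of each other, so reads could be assigned among them. Cd74, the class II invariant chain, was at 4.48 and 3.91 CPM against 36.4 and 40.2 CPM (-3.18 ± 0.19 SE), but its UMIs sat in few cells of both states. Of its 21 UMIs in rich cells of replicate 1, 19 were in a single cell, and the top 10% of poor cells held all of the UMIs in replicate 1 and 95.9% in replicate 2, with 21.6% and 21.9% in a single cell.

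Of 9 acute phase and antimicrobial genes 8 were lower and none higher, with a median of -0.94 (DESeq2, thinned cells and cells of 2% to 4% Malat1 each gave 5). Saa1, serum amyloid A, was at 1677 and 1572 CPM in rich and 3287 and 2971 CPM in poor cells (-0.94 ± 0.04 SE). Lypd8, a glycoprotein that keeps bacteria off the colon epithelium, was at 5635 and 5665 CPM against 8758 and 9322 CPM (-0.68 ± 0.03 SE). Reg3b, an antibacterial lectin, was at 5.55 and 1.15 CPM against 37.9 and 22.8 CPM, and 1 poor cell of replicate 1 held 32.7% of its UMIs there. In rich cells 23 of 26 and 4 of 5 Reg3b UMIs were in a single cell. All 3 genes were without overlap.

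Of 14 xenobiotic metabolism genes 9 were lower and 1 higher (Adh1) with a median of -0.33; DESeq2 called 6 lower, and 4 were lower without DMSO replicate 2. Aldh1a1, a retinaldehyde dehydrogenase, was at 276 and 219 CPM against 464 and 417 CPM, and Cyp3a13 at 105 and 101 CPM against 202 and 232 CPM. Gsta1 differed more between libraries, 9.82 and 19.8 CPM against 31.4 and 67.5 CPM. A single poor cell of replicate 2 held 130 of 329 Gsta1 UMIs (39.5%), and on the scale without TMM the level there was 66.4 CPM with and 40.4 CPM without it. Lysosomal genes showed no common direction, 3 of 16 higher and 4 lower (DESeq2 1 and 2), with the proteases Ctsl and Ctsd lower, at -0.65 and -0.44 and the hexosaminidase subunit Hexa higher by 0.41. Without DMSO replicate 1 the lysosomal counts were 2 and 2 and without replicate 2 none and 2, and thinned cells and both restricted sets of cells gave 1 higher.

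Immediate early genes, which dissociation can induce, were lower in rich cells for 9 of 13 and higher for none, with a median of -0.35; DESeq2 called 3, and cells of 2% to 4% Malat1 gave 5 of 12 lower and 1 higher. Without DMSO replicate 1 or 2, 4 or 3 were lower. Dusp1, a phosphatase of MAP kinases, was at 23.9 and 26.7 CPM against 47.1 and 59.3 CPM (-1.07 ± 0.11 SE), and Jun at 58.9 and 74.0 CPM against 92.0 and 97.3 CPM. Their part in the other differences was not tested. Of 10 heat shock genes 5 were higher and 3 lower (DESeq2 4 and 1). Hspa8, the constitutive cytosolic Hsp70, was at 1574 and 1514 CPM against 785 and 771 CPM (0.99 ± 0.04 SE), while the inducible Hspa1b was lower (-1.24 ± 0.15 SE). Of 12 p53 targets 2 were higher and 4 lower, and of 15 genes of apoptosis and shedding 2 were higher and 5 lower; DESeq2 called none and 1 of these. Without DMSO replicate 1 or 2 none or 1 p53 target was lower, and 2 of the apoptosis genes. Casp8 was lower at 87.7 and 98.6 CPM against 139.9 and 154 CPM. Among 5 tested nuclear-retained RNAs 3 were lower (as by DESeq2), Malat1 at -0.63 ± 0.03 and Neat1 at -0.90 ± 0.04 SE, and Malat1 was at 30237 and 25231 CPM in rich and 46248 and 39776 CPM in poor cells.

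Markers of other epithelial and stromal types were checked in the same sums. Totals over a marker list, here and in the next paragraph, are CPM of all UMIs, while levels of single genes stay on the non-ribosomal scale. Ribosomal genes held 13.3% and 13.2% of all UMIs in rich cells and 4.25% and 4.23% in poor cells. Goblet genes were lower in rich cells, 7 of 10 tested with none higher and a median of -1.05; DESeq2 called 3, and cells of 7% to 11% mitochondrial UMIs gave 3 of 7, and 4 were lower without DMSO replicate 1. Their 13 markers summed to 2589 and 2231 CPM in rich and 5286 and 5198 CPM in poor enterocytes, against 197772 and 184104 CPM in the cells named goblet. Thinned to 5000 UMIs, the median rich cell held 7 goblet UMIs in both libraries and the median poor cell 15 and 14, against 1061 and 995.5 in goblet cells. Tff3, a secreted trefoil peptide, was at 1155 and 986 CPM against 2332 and 2371 CPM, with 80.8% and 78.2% of its UMIs in the top 10% of poor cells. Fcgbp, a mucus protein also made by colonocytes, was at 1609.9 and 1405 CPM against 2997 and 2874 CPM. The part of goblet RNA in the other differences was not tested.

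No tuft marker reached the filter, and the 10 tuft markers summed to 1.31 and 4.50 CPM in rich and 2.29 and 3.87 CPM in poor cells. Enteroendocrine markers summed to 33.7 and 29.2 CPM in rich and 47.5 and 52.8 CPM in poor cells, with 9 of the 11 at 0 in each rich sum and 10 in each poor sum, and only Sct (secretin) tested (-0.58 ± 0.10 SE; not called by DESeq2). Paneth markers summed to 4.50 CPM in both rich sums and to at least 10.4 CPM in poor cells, and 4 of 7 were at 0 in every sum. Lyz1 and Itln1 were lower, which DESeq2 did not call. Immune markers summed to 2.06 and 2.86 CPM against 11.8 CPM in both poor sums, with 6 or 7 of 9 at 0. All but the receptor gene Csf1r were too low to test, and Csf1r was lower at 2.13 and 2.07 CPM against 11.5 and 11.9 CPM, with 7 of its 10 UMIs in rich cells of replicate 1 in a single cell. Stromal markers did not exceed 2.82 CPM in any sum and none was called.

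The genes with the lowest fold change and at least 20 CPM on average were Psca, Nts, Tm4sf1, Cd74, Clca4a, Timp2, Rbp2, Ubd, Cldn4 and Clic4. Psca, a surface protein anchored by a lipid, was at 9.61 and 7.13 CPM in rich and 162 and 152 CPM in poor cells, 18.7-fold higher in the poor cells (-4.22 ± 0.12 SE). Tm4sf1, a membrane protein with 4 spans, was at 9.39 and 9.89 CPM against 94.7 and 129.5 CPM, and Clca4a, an accessory of chloride channels, at 44.2 and 30.3 CPM against 259.8 and 216 CPM. Rbp2, the retinol binding protein of enterocytes, was at 96.9 and 81.6 CPM against 464 and 448 CPM. These sums were apart between the states in both libraries, which the rule that named the genes required. Cldn4, a tight junction claudin, and Timp2, a metalloproteinase inhibitor, were lower, at -2.24 ± 0.08 and -2.35 ± 0.08 SE.

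Nts, which encodes the peptide neurotensin, was at 22.0 and 12.6 CPM against 163 and 388 CPM (-3.91 ± 0.09 SE), but the value belongs to few cells. In poor cells of replicate 2 a single cell held 1677 of 1888 UMIs (88.8%) and in replicate 1 a single cell held 389 of 868. On the scale without TMM, leaving out the highest cell of each sum put Nts at 6.08 and 12.5 CPM in rich and 88.5 and 42.6 CPM in poor cells. For Psca the highest cell held between 6.47% and 12.9% of the rich and poor sums. The sums without the highest cell were looked at after the values were seen.

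For most called genes the level in middle cells lay between those of poor and rich cells, as counted above. On the scale without TMM, Eef1a1 was at 1126 and 1148 CPM in poor, 2165 and 2371 CPM in middle and 3968 and 4116 CPM in rich cells. Fabp2 went from 1182 and 999 CPM in poor through 457 and 463 CPM to 299.6 and 282 CPM in rich cells. Both had their middle level between the ends in both libraries. Hspa5 did not follow this in full, with 147 and 168 CPM in poor and 155 and 166 CPM in middle cells. Over all enterocytes, cell by cell, the ribosomal share had a Spearman rho with Eef1a1 of 0.89 in both libraries, with Fabp2 of -0.21 in both and with Car1 of -0.12 and -0.18.

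**Figure D4:**
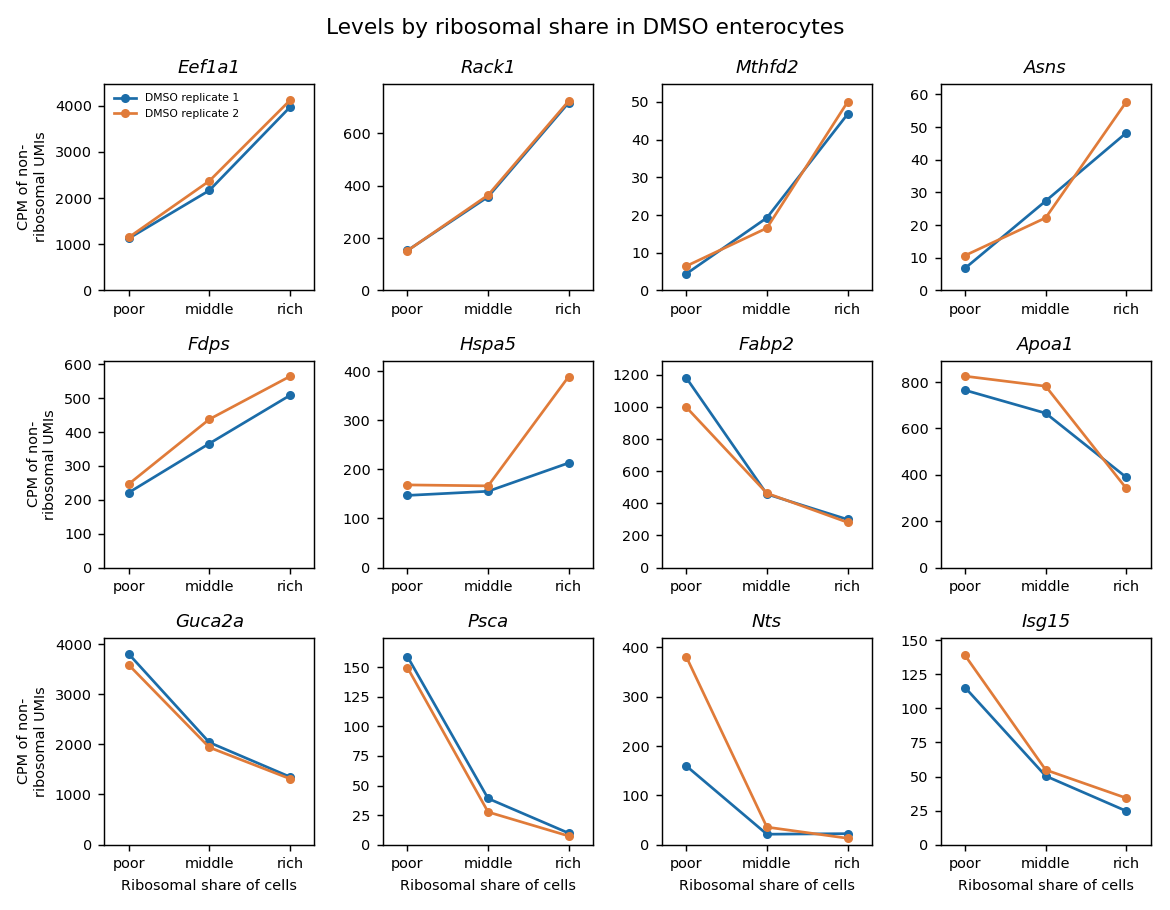
Levels of 12 genes (vertical axes from 0, CPM of non-ribosomal UMIs without TMM) in the poor, middle and rich sums (horizontal axes) of the 2 DMSO libraries, a line per library. Eef1a1 and Rack1 climb with the ribosomal share and Fabp2, Guca2a, Psca and Isg15 decline in both libraries, while Nts and Hspa5 differ between libraries at 1 end.

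The treated libraries, which the rule did not use, were divided at the same boundaries. At 13 h there were 312 and 366 rich and 140 and 151 poor enterocytes, and at 25 h 317 and 355 rich and only 49 and 32 poor ones, so the same boundaries cut these distributions at other places. A fit over all 6 libraries tested 10416 genes, with 1902 higher (18.3%) and 1922 lower (18.5%) at 13 h (36.7% in all) and 1234 higher (11.8%) and 1244 lower (11.9%) at 25 h (23.8% in all). Of the 1770 genes higher in rich cells under DMSO, 94.1% had the same direction at 13 h and 92.5% at 25 h, and 1254 and 955 were called. Of the 1782 lower genes, 94.1% and 90.2% kept the direction, with 1232 and 907 called. Genes without a call in DMSO had the same sign in 67.4% and 63.6%.

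Other TOP messages were higher for 20 of 21 at both times, with medians of 1.36 and 1.89. Interferon genes were lower for 15 of 17 at 13 h and 13 of 17 at 25 h, with medians of -1.59 and -1.47. Cholesterol synthesis was higher for 14 and 13 of 20, each time with 1 lower. Fabp2 was lower, at -1.54 ± 0.09 and -2.02 ± 0.11 SE, and Psca likewise, at -4.21 ± 0.15 and -5.99 ± 0.17 SE.

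The difference between the states itself changed under tunicamycin for few genes. The edgeR interaction test called 350 genes at 13 h (3.36%), 82 more positive (0.787%) and 268 more negative (2.57%) than in DMSO, and 418 at 25 h (4.01%), 161 more positive (1.55%) and 257 more negative (2.47%). Both tests share the DMSO libraries and rest on them: without DMSO replicate 1 there were 20 and 83 calls at 13 h and 78 and 124 at 25 h, and without DMSO replicate 2 there were 33 and 123, and 115 and 167. Leaving out replicate 2 of the 13 h group gave 37 and 142 calls, and leaving out replicate 2 of the 25 h group gave 73 and 170. The ATF4 and CHOP network had 12 of 17 members more negative at 13 h and 7 at 25 h, with none more positive. In the fit of all 6 libraries Trib3 had a log2 fold change of 2.84 ± 0.23 in DMSO, 0.18 ± 0.10 at 13 h and 0.80 ± 0.17 at 25 h (SE; interaction adjusted p 7.82e-10 and 1.28e-05 by edgeR). Its level in poor cells was 109 and 119 CPM at 13 h, near the 131 and 127 CPM of rich cells.

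Ddit3 and Hspa5 turned round. Ddit3 went from 0.66 ± 0.09 in DMSO to -1.08 ± 0.07 at 13 h and -0.52 ± 0.08 at 25 h (SE; edgeR interaction adjusted p 1.94e-14 and 1.97e-09). At 13 h it was at 1077 and 973 CPM in rich and 2064 and 2269 CPM in poor cells. Hspa5 went from 0.84 ± 0.10 to -0.41 ± 0.08 and -0.48 ± 0.09, with 4911 and 4472 CPM in rich and 5685 and 6825 CPM in poor cells at 13 h. Under tunicamycin both genes were thus lower in rich cells, without overlap at 13 h. Of the 15 ER chaperones, 13 were more negative at 25 h than in DMSO and 12 were lower in rich cells. At 13 h, 4 were more negative, 2 more positive, and 7 higher and 3 lower in rich cells. TOP messages did not show this: none of 21 differed at 13 h by this test, and 12 were more positive at 25 h. Tff3 was -1.12 ± 0.11 in DMSO and -0.98 ± 0.11 at 13 h, but 0.74 ± 0.12 at 25 h.

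**Figure D5:**
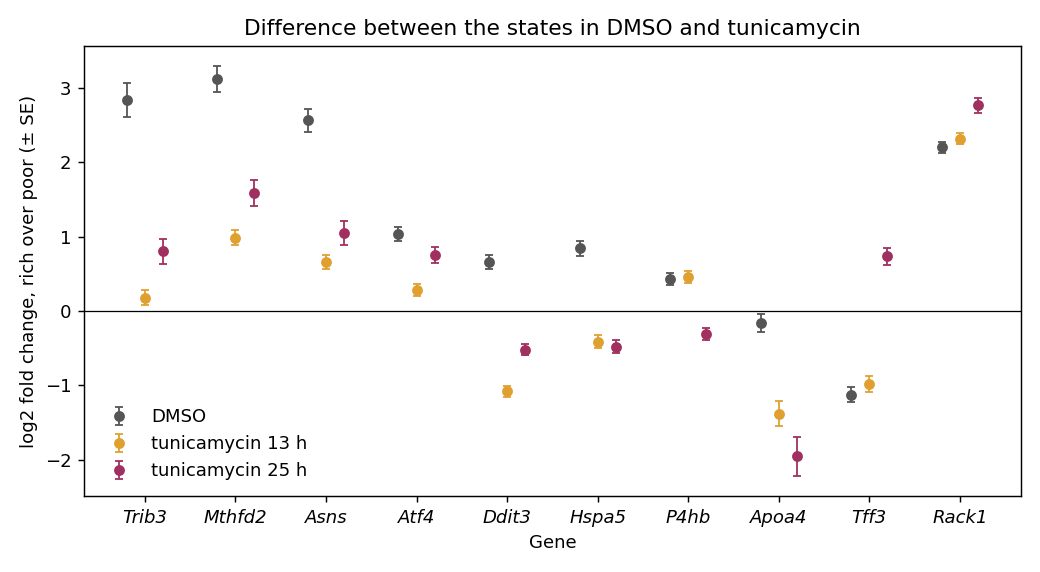
Log2 fold change of rich over poor enterocytes (vertical axis, with SE as error bars) for 10 genes (horizontal axis) in DMSO and after 13 h and 25 h of tunicamycin, from the fit over 6 libraries. Ddit3 and Hspa5 are above 0 in DMSO and below 0 at both times, Trib3, Mthfd2 and Asns shrink towards 0, and Rack1 stays between 2.20 and 2.77.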

How the data were processed

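The authors deposited raw UMI counts of 27998 genes per cell, and the cell names (another deposited file) hold library, barcode and class. The submitters' processing notes name Cell Ranger and mm10, while a version, the cell filter and the way classes were assigned are not given in the sources consulted. Symbols came from GENCODE vM21 for 27722 genes.

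Members and gene lists were chosen with earlier results of these data known. Counts were summed per library and state, and ribosomal genes were left out. Sums were filtered with filterByExpr, scaled by TMM and tested by quasi-likelihood in edgeR 4.0.16 (R 4.3.3). Calls have a Benjamini-Hochberg adjusted p under 0.05. DESeq2 1.42.0 was an alternative. Both sums of a library come from the same library preparation, so library was a block. Exact permutation of 2 against 2 libraries cannot go below p = 0.333, so medians per cell were not tested. Named genes were, among called genes with at least 20 CPM and no overlap, the 10 highest and 10 lowest, up to 3 per list by adjusted p and 11 fixed genes (117 tested genes in all); others are named after their values were seen or as list members, and some are not reported here. Scrublet in scanpy 1.11.5 called 31 doublets (0.605%), 12 among DMSO enterocytes, which were kept; 12 barcodes recur across libraries. On simulated data of 9598 genes the DMSO fit recovered 76% of 2-fold, 48% of 1.5-fold and 26% of 1.25-fold increases and 70.8% of decreases to 0.5, and called 0.0319% of unchanged genes. The simulation gave every gene the same common dispersion, so these rates do not measure errors where genes vary unequally. Alternatives covered scaling, filters, boundaries, depth, mitochondrial share, doublets and replicates.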

Additional observations from a re-analysis of the deposited data

Results flagged for a closer look

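For 49 of the 117 named genes the difference between ribosome-rich and ribosome-poor enterocytes was not the same under tunicamycin as in DMSO. The test was the edgeR interaction with library as a block. Over all 10416 tested genes it called 3.36% at 13 h and 4.01% at 25 h. Many named genes were chosen by their values in the DMSO libraries, which enter these tests, so their count does not measure how common such changes are. Values are the log2 fold change of rich over poor under tunicamycin minus that in DMSO. The 13 h and 25 h tests share the DMSO libraries and are not independent, and the poor sums at 25 h rest on 49 and 32 cells.

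At 13 h the value was negative for stress and amino acid genes, with Trib3 at -2.66, Mthfd2 at -2.13, Asns at -1.90, Ddit3 at -1.74, Hspa5 at -1.25, Atf4 at -0.75, Sars at -0.67 and Nars at -0.59. Among genes lower in rich cells, Cd74 was at -1.997, Apoa4 at -1.22, Ifit1 at -0.87, Timp2 at -0.78 and Clca4a at -0.74. Regulators followed, with Jun at -0.74, Dusp1 at -0.66, Pcna at -0.65, Mxd1 at -0.62, Max at -0.48 and Tcf7l2 at -0.38. Mt1 was at -0.50, Slc9a3r1 at -0.35 and Malat1 at -0.34. The value was positive for Nts (2.14), Car1 (0.54), Cyp3a13 (0.42) and Fabp2 (0.40). The DMSO levels of Nts and Cd74, from which these values are taken, rest on few cells, as given above.

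At 25 h stress genes were again among the negative ones, without Atf4 and Sars and with P4hb and Canx added, with Trib3 at -2.04, Mthfd2 at -1.53, Asns at -1.51, Hspa5 at -1.32, Ddit3 at -1.18, P4hb at -0.74, Nars at -0.58 and Canx at -0.44. Absorptive and defence genes were negative as well, with Reg3b at -4.06, Ada at -3.02, Apoa1 at -1.92, Apoa4 at -1.80, Psca at -1.78, Gsta1 at -1.56, Rbp2 at -1.21, Isg15 at -1.12, Saa1 at -0.90, Timp2 at -0.84 and Clca4a at -0.65. Several of these rest on the poor cells of 25 h replicate 2. Apoa1 was there at 3556 CPM, against 53.5 CPM in replicate 1, where rich cells were higher at 114 CPM. In poor cells of replicates 1 and 2, Ada was at 14.3 and 252 CPM, Reg3b at 56.1 and 795 CPM, Gsta1 at 62.6 and 547 CPM, and Rbp2 at 361 and 1459 CPM. Jun was at -0.81, Mxd1 at -0.60, Casp8 at -0.50, Max at -0.50, Prom1 at -0.49 and Malat1 at -0.37. Positive values were found for Naaladl1 (1.98), Tff3 (1.86), Ncl (0.89), Hspe1 (0.72), Hexa (0.71), Atp5c1 (0.61), Rack1 (0.56), Guca2a (0.53), Hspa8 (0.52), Aldh1a1 (0.39) and Fcgbp (0.33).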

How the results depend on the processing

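Of the DMSO calls (1770 higher and 1782 lower), cells with at most 10% mitochondrial UMIs gave 946 and 1103, cells thinned to 5000 UMIs 967 and 933, and DESeq2 507 and 486. The fit over all 6 libraries, from which the counts without a replicate come, gave 1599 and 1432. Without DMSO replicate 1 the calls were 887 and 734 and without replicate 2 they were 786 and 692. Without a low-count filter 1255 and 1186 were called. Chosen after seeing the data, cells of 7% to 11% mitochondrial UMIs gave 697 and 879, and those of 2% to 4% Malat1 gave 849 and 859. The cause was not tested, though each setting with fewer cells or UMIs has less depth. Total counts without TMM gave 2111 and 1459. In the paired design, no replicate block gave 1568 and 1595, and 64 and 211 interactions at 13 h and 119 and 200 at 25 h, within 1.5 times of the main counts.

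Interactions at 13 h (82 more positive, 268 more negative) ranged from 20 to 87 and from 83 to 217 when a library was left out, with over 1.5 times fewer without either DMSO library or 13 h replicate 2. At 25 h (161 and 257) they ranged from 73 to 149 and from 124 to 183, lowest without 25 h replicate 2 and DMSO replicate 1. At most 10% mitochondrial UMIs gave 43 and 116 at 13 h and 96 and 103 at 25 h, thinning 40 and 97, then 73 and 102, and no TMM 125 more positive at 13 h.

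Direction turned for Zg16 at a split at the median share (0.62), for mt-Atp6 with at most 10% mitochondrial UMIs (8.34e-05) and at 7% to 11% (0.0173), and for Malat1 at 2% to 4% Malat1 (0.082). In these settings mt-Atp6 and Malat1 UMIs were part of the share that chose the cells. The turns of these 2 genes are therefore no check of the main result. DESeq2 took the call from 17 of 117 named genes.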
